A study of Mus musculus with 6 samples.

Results

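Oxidative phosphorylation is carried out in the inner mitochondrial membrane by 5 protein complexes, and most of their subunits are made from nuclear genes. The genes examined here are the nuclear protein-coding genes whose symbol starts with Ndufa, Ndufb, Ndufc, Ndufs, Ndufv, Uqcr, Cox4, Cox5, Cox6, Cox7, Cox8 or Atp5, with Sdha, Sdhb, Sdhc, Sdhd and Cyc1. They were chosen by name and not by any measured value, though with earlier results of these data known. GENCODE M21 holds 95 such genes on the mm10 build, and 91 of them, of 12974 protein-coding genes in all, had a protein-coding transcript in the deposited table. The others, Cox6a2, Cox7b2, Cox8b and Cox8c, were not analysed here. The name rule also took in 8 assembly factors of complex I (Ndufaf1 to Ndufaf8), Ndufa4l2 and Atp5s, which are no structural subunits and were kept apart. The 81 subunit genes were 36 of complex I, 4 of complex II, 9 of complex III, 15 of complex IV and 17 of complex V. Ndufa4 was counted with complex IV, to which its protein is now assigned, and the supercomplex factor Cox7a2l was also counted there.

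Complexes I and II pass electrons from NADH and succinate to coenzyme Q, complex III passes them on to cytochrome c, and complex IV gives them to oxygen. Complexes I, III and IV pump protons while doing so, and complex V, the ATP synthase, makes ATP as the protons flow back. Naive mouse embryonic stem cells are known to use this pathway together with glycolysis.

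The samples were 6 mNET-seq libraries of C57BL/6 mouse embryonic stem cells, in 3 groups of 2: control cells, a Mettl3 knockout line named KO1 and a Mettl3 knockout line named KO2. Mettl3 is the catalytic subunit of the enzyme that places N6-methyladenosine on RNA, and the study asked how transcription differs without it. All groups were grown in serum with LIF at 1000 U/ml and with 3 µM CHIR99021 and 1 µM PD0325901, inhibitors of GSK3 and MEK, and differ, as far as the labels say, only in the knockout. The labels give neither the deleted part of the gene, nor whether a line is 1 clone, nor whether the replicates are separate cultures. The p-values therefore rest on the spread of these 6 libraries alone, and that spread may be technical. mNET-seq sequences the short RNA (35 to 100 nt here) that RNA polymerase II holds after nuclease digestion of chromatin.

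The deposited value is an escaping index, the log2 of a ratio within a transcript. The sources used here do not state its windows. The index rose with the genomic span of the transcript (Pearson's r = 0.688 and Spearman's rho = 0.681 with the log10 span, across 12974 genes, which are no independent replicates). A higher value is therefore read here as more polymerase signal downstream relative to the start. That direction is inferred, since the windows and any scaling by length are unknown. A lower value cannot tell less signal downstream from more signal near the start, and the index says nothing of how much RNA a gene makes. Read depth per library is unknown. Replicates differed by a median of 0.18 to 0.25 in the 91 genes and of 0.24 to 0.29 in all protein-coding genes (absolute difference, log2). Mettl3 itself had an index of 2.70 and 2.46 in control, 2.44 and 2.42 in KO1 and 2.104 and 2.305 in KO2, and did not pass the test in either line (limma adjusted p = 0.618 and 0.166). Since the index is a ratio, it cannot show whether Mettl3 RNA or protein was lost. Of 7 pluripotency markers, all 7 were in the table, and of 5 fibroblast markers 2 were (Col1a2, Dcn and Lum were not), but an index is no level of their RNA.

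Promoter sequences are shown for genes on which the results below turn: 4 assembly factor genes of complex I whose index fell, and subunit genes of complexes I, II and V. Each line gives the stretch before the start site, up to 150 bases or up to the nearest annotated exon, read 5′ to 3′ on the strand of the gene (RefSeq promoters, GRCm38.p6, which is mm10). Capitals mark a match to one of 4 motifs searched on both strands: GCGCA, any base and GCGC for NRF1, CCGGAAG for ETS factors such as GABP, AAGATGGC for YY1 and TATAAA for the TATA box.
Ndufaf1, chr2:119662835-119662984, minus strand: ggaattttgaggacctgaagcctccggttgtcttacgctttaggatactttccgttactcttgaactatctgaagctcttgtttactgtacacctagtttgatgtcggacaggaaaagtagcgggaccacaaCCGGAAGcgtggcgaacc
Ndufaf5, chr2:140170565-140170645, plus strand: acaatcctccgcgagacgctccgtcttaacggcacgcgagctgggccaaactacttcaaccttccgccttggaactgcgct
Ndufaf7, chr17:78937067-78937134, plus strand: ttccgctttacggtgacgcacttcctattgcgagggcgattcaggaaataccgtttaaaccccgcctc
Ndufaf8, chr11:120098778-120098927, plus strand: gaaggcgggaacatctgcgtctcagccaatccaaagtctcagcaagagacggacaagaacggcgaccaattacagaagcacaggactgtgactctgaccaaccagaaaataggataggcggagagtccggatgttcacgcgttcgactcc
Ndufb4, chr16:37654454-37654603, minus strand: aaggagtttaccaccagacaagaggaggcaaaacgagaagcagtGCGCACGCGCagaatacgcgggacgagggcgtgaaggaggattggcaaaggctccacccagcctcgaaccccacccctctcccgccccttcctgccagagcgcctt
Sdhd, chr9:50603850-50603909, minus strand: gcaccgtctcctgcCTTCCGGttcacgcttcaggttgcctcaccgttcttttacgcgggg
Atp5k, chr5:108434449-108434598, minus strand: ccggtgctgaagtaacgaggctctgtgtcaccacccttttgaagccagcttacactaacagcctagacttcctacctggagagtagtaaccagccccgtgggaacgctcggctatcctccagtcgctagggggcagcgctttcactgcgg
These stretches share no motif across all 7 genes: an ETS match stands before Ndufaf1 and Sdhd, an NRF1 match before Ndufb4, and none of the 4 motifs in the stretches printed for the others.

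In the whole promoter windows (250 bases before to 50 after the start), 18 of 66 genes with a RefSeq start within 100 bases of the transcript used held the NRF1 motif (27.3%), against 11.4% of 8297 protein-coding genes. The ETS motif was in 24.2% of the 66 and 19.6% of all, the YY1 motif in 12.1% and 4.92%, and TATAAA in 6.06% and 6.20%. The ETS motif ends in the letters AAG with which the YY1 motif starts, so a match to each can share bases. In these longer windows Ndufaf5 and Sdhd also held an NRF1 match, Ndufaf8 an ETS and a YY1 match, and Atp5k an NRF1 and an ETS match, while Ndufaf7 held none of the 4. A motif match is a description of the sequence and not a bound site. The 18 genes with an NRF1 match had a median change of -0.53 in the knockouts, and the 48 without had -0.42. For the ETS motif these medians were -0.38 with a match (16 genes) and -0.45 without (50 genes).

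In control cells the index of the 91 genes ran from -0.76 in Cox7a1, the heart and muscle form of a complex IV subunit, to 7.34 in Ndufaf6, with a median of 3.74 against 4.80 over all protein-coding genes. Oxidative phosphorylation genes are short. Their transcripts spanned a median of 7.38 kb with 4 exons, against 22.39 kb and 8 exons over all. Within the 91 genes the index also rose with span (r = 0.666, rho = 0.684, across genes). In the groups of span up to 20 kb they lay near other genes or, up to 5 kb, above them. Those of up to 5 kb had a median of 2.25 (30 genes) against 1.68 for all genes of that span, and those of 5 to 10 kb had 3.46 (31 genes) against 3.46. Those of 10 to 20 kb had 4.50 (16 genes) against 4.35. Those of over 20 kb had 6.105 (14 genes) against 5.869, although their median span was shorter, at 27.72 kb against 48.94 kb. That last comparison is therefore not at like span. Over all protein-coding genes with a log10 span around 4.5 (1817 genes) the control median was 5.34. By complex, the control median was 6.46 in complex II, 3.96 in complex V, 3.61 in complex I, 3.25 in complex IV and 2.37 in complex III.

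**Figure D1:**
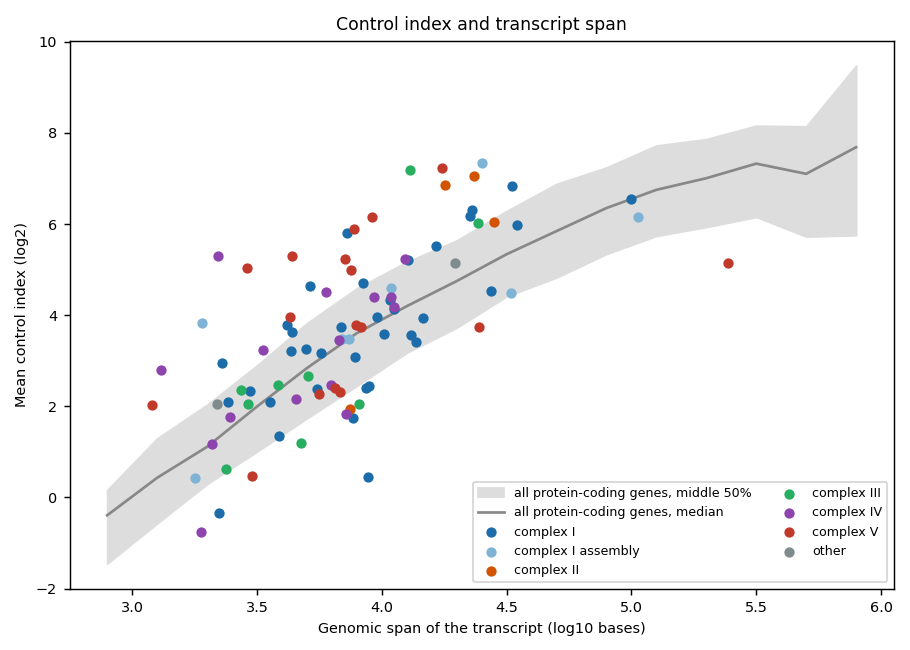
Mean control index (log2, vertical axis) against the genomic span of the transcript (log10 bases, horizontal axis) for the 91 genes, coloured by complex, with the median (line) and the middle 50% (band) of all protein-coding genes. The 91 genes follow the rise of the index with span, and most lie below 5 on the index.

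The index of these genes was lower in both knockout lines, about as much as in the genome as a whole. The median change was -0.30 for KO1, -0.51 for KO2 and -0.42 averaged over both lines (log2), and over all protein-coding genes it was -0.37, -0.58 and -0.47. Per library, the median of the 91 genes was 3.52 and 3.73 in control, 3.29 and 3.41 in KO1, and 3.23 and 3.30 in KO2, so all 4 knockout libraries lay below both controls. Below control, by any amount, were 67 of 91 in KO1 (73.6%, against 77.0% of all genes), 74 in KO2 (81.3%, against 85.8%) and 75 in the average (82.4%, against 84.6%). In single genes the groups overlapped more often than not: all 4 knockout libraries lay below both controls in 37 of 91 (40.7%), against 45.3% of all genes, and above both in 2 (Ndufa13 and Ndufb3), against 2.13% of all. Both KO1 libraries lay below both controls in 46 genes (50.5%, against 53.3% of all) and above them in 11 (12.1%, against 8.56%). Both KO2 libraries lay below in 57 (62.6%, against 67.0%) and above in 3 (3.30%, against 4.99%).

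Fewer genes passed the limma test, with an adjusted p under 0.05 over all 12974 genes. In KO1 the index fell in 5 of the 91 genes (5.49%, against 6.00% of all genes), in KO2 in 27 (29.7%, against 29.0%), and in the average of both lines in 17 (18.7%, against 26.0%). It rose in none, where 0.270%, 0.563% and 0.578% of all genes were called higher. The 5 genes that fell in KO1, Ndufaf7, Ndufaf8, Ndufs3, Cox4i2 and Atp5s, also fell in KO2 and in the average. These calls are on the deposited scale, on which the median of all genes is itself lower in the knockouts. With the median of every library set equal, no gene was called by limma in any contrast (2678, 2992 and 3063 genes had an unadjusted p under 0.05 in KO1, KO2 and the average), and the 91 genes had medians of 0.07 (KO1), 0.05 (KO2) and 0.04 (average). On that scale 41 of 91 were lower for KO1, 42 for KO2 and 41 for the average, against 49.5%, 51.7% and 50.2% of all genes. No call was left in KO1 when any 1 library was left out, and the counts of these genes were then 0 to 17 in KO2 and 0 to 5 in the average. In KO2 no call was left without either KO2 library or without control replicate 2. In the average none was left without KO1 replicate 1, either KO2 library or either control.

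**Figure D2:**
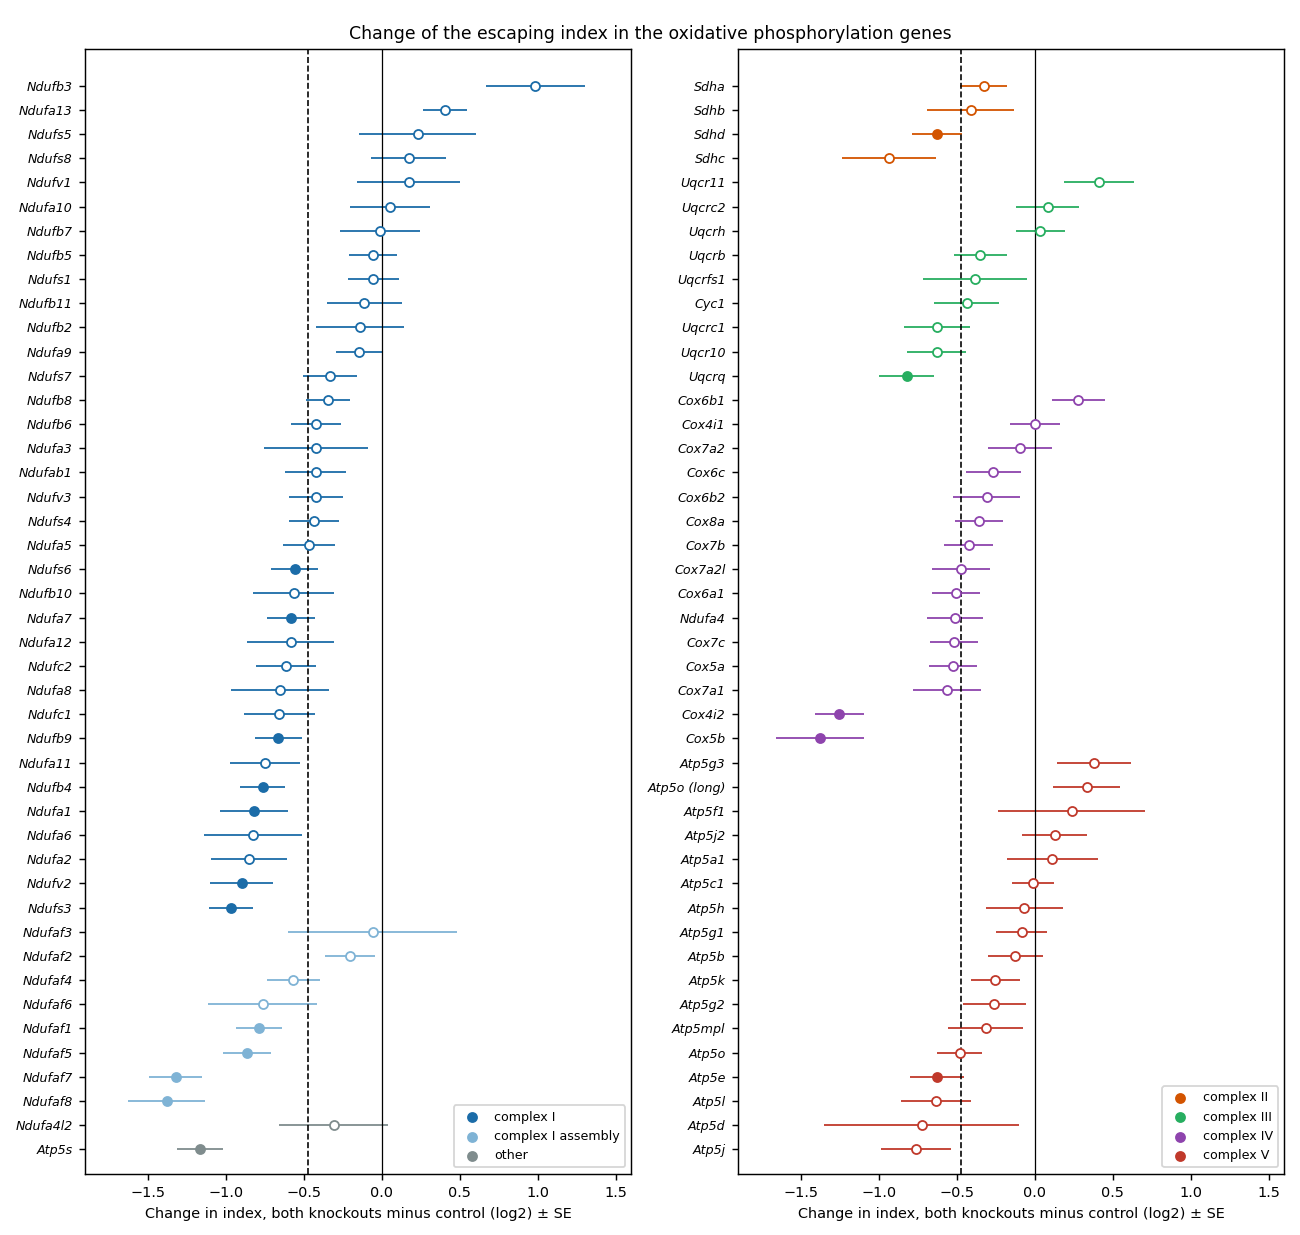
Average change of the index over both knockout lines (log2, horizontal axis, bars are SE) with 1 row per gene, grouped and coloured by complex. Filled points passed the limma test (17 genes), open points did not, and the dashed line is the median of all protein-coding genes (-0.47). Most of complex V lies to the right of that line and most assembly factors to its left.

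The assembly factors of complex I had a lower median change in the average than any of the 5 complexes, at -0.78, with -0.71 in KO1 and -0.80 in KO2, against -0.42 for the 36 subunits of complex I in the average. All 8 were below control in the average, as were 84.6% of all genes, and 4 of them fell, against 26.0% of all genes. These proteins build complex I and are not part of the finished enzyme. Ndufaf7 (chromosome 17, 78937137 to 78948052, mm10), a methyltransferase that modifies a core subunit, had an index of 4.47 and 4.72 in control, 3.38 and 3.05 in KO1, and 3.33 and 3.34 in KO2. The knockout libraries lay together, more than 1 unit below the controls. The change was -1.32 ± 0.17 (SE) in the average (limma adjusted p = 0.0179), and the gene passed in KO1 (-1.38 ± 0.20, adjusted p = 0.0376) and in KO2 (-1.26 ± 0.20, adjusted p = 0.0181).

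Ndufaf8 (chromosome 11, 120098928 to 120100705), which acts with Ndufaf5, was near a ratio of 1 in control (0.31 and 0.54) and below it in KO1 (-1.29 and -0.73) and KO2 (-0.68 and -1.10). It fell by 1.38 ± 0.25 in the average (limma adjusted p = 0.0205), and in each line. Ndufaf5, which modifies the core subunit Ndufs7, was at 4.44 and 4.55 in control, 3.79 and 3.85 in KO1, and 3.56 and 3.30 in KO2. It fell in KO2 (-1.06 ± 0.18, adjusted p = 0.0186) and in the average (-0.87 ± 0.15, adjusted p = 0.0200) but did not pass in KO1 (adjusted p = 0.0719). Ndufaf1, of the intermediate that assembles the membrane arm, stood at 3.48 in both controls, at 2.71 and 2.76 in KO1 and at 2.75 and 2.57 in KO2. It fell in KO2 (-0.82 ± 0.17) and in the average (-0.79 ± 0.15, adjusted p = 0.0211).

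Of the other assembly factors, Ndufaf4 (-0.57 ± 0.17), Ndufaf6 (-0.76 ± 0.35) and Ndufaf2 (-0.21 ± 0.16) did not pass, although their knockout libraries all lay below both controls, in Ndufaf6 by less than the rounding (a control and a KO2 library at 6.80). Ndufaf3 did not separate the groups. It was at 3.09 and 4.56 in control, 3.69 and 3.49 in KO1 and 3.23 and 4.64 in KO2, so the replicates of control and of KO2 differed by more than the group means did. Relative to the median of all genes, Ndufaf7 was at -0.86, Ndufaf8 at -0.91, Ndufaf5 at -0.40 and Ndufaf1 at -0.32 (median-centred change in the average). None passed on that scale.

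Complex I has 7 nuclear core subunits, which carry the flavin and the iron-sulphur clusters, and 29 accessory subunits among those measured. Of the core subunits 2 fell in the average and 5 did not pass, and of the accessory subunits 5 fell and 24 did not. Over all genes 26.0% fell in the average. Ndufs3 (chromosome 2, 90894636 to 90904827), a core subunit of the peripheral arm, was at 3.56 and 3.60 in control, 2.55 and 2.45 in KO1 and 2.69 and 2.74 in KO2. Replicates lay close together, and the groups did not overlap. It fell in KO1 (-1.07 ± 0.16, limma adjusted p = 0.0389), then KO2 (-0.86 ± 0.16, adjusted p = 0.0213) and in the average (-0.97 ± 0.14, adjusted p = 0.0181). It overlaps Kbtbd4, so reads of that gene may be counted in its value. Ndufv2, a core subunit with an iron-sulphur cluster, was at 6.38 and 6.24 in control, 5.53 and 5.84 in KO1 and 5.37 and 4.90 in KO2. It fell in KO2 (-1.17 ± 0.23, adjusted p = 0.0230) and in the average (-0.90 ± 0.20, adjusted p = 0.0299).

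The other 5 core subunits did not pass in the average. Ndufs1, the largest subunit and the gene of complex I with the highest control index, was at 6.97 and 6.70 in control, 6.67 and 6.75 in KO1 and 6.93 and 6.78 in KO2, and its groups overlapped (-0.05 ± 0.16). Ndufv1, which binds NADH, was at 0.17 ± 0.33, Ndufs8 at 0.17 ± 0.24 and Ndufs7 at -0.33 ± 0.18. Ndufs7 fell in KO2 only by its own test there (-0.72 ± 0.20, limma adjusted p = 0.0461), with KO1 at 0.06 ± 0.20. The difference between the lines had an unadjusted p of 0.00926 and did not pass the adjustment.

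Among the accessory subunits, Ndufb4, of the membrane arm, was at 5.80 in both controls, 5.33 and 5.51 in KO1 and 4.59 and 4.72 in KO2. The lines stepped down without overlap, and the gene fell in KO2 (-1.15 ± 0.17, limma adjusted p = 0.0173) and in the average (-0.76 ± 0.15, adjusted p = 0.0226) but not in KO1 (adjusted p = 0.183). Ndufb9 (-0.66 ± 0.15), Ndufa7 (-0.58 ± 0.15), Ndufa1 (-0.82 ± 0.22) and Ndufs6 (-0.56 ± 0.15) also fell in the average, with limma adjusted p from 0.0315 to 0.0450. Of these, Ndufb9, Ndufa1 and Ndufs6 also fell in KO2. Ndufa5 and Ndufa9 fell in KO2 alone by their own tests (-0.73 ± 0.19 and -0.60 ± 0.17).

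Ndufa2 had the lowest control index of complex I, a ratio below 1, and was at -0.14 and -0.56 in control, -0.94 and -1.51 in KO1 and -1.13 and -1.23 in KO2. Its groups did not overlap, and it missed the threshold (-0.85 ± 0.25, limma adjusted p = 0.0530). Tmco6 overlaps the gene, so reads of Tmco6 may enter the value. Ndufb3 had the highest change of the 91 genes. It was at 3.96 and 3.95 in control, 5.20 and 4.93 in KO1 and 4.26 and 5.35 in KO2, all 4 above both controls, and did not pass (0.98 ± 0.32, adjusted p = 0.0688). Ndufa13 was also above both controls in all 4 libraries and did not pass (0.41 ± 0.14, limma adjusted p = 0.0810). It overlaps Tssk6 and Yjefn3, so reads of those genes may enter its value. The Ndufa and Ndufb members of complex I had medians of -0.58 (13 genes) and -0.24 (10 genes) in the average.

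Complex II, succinate dehydrogenase, has 4 subunits, all nuclear, with a median of -0.52 in the average. All were below control in both lines, as were 77.0% of all genes in KO1 and 85.8% in KO2. Sdhd, a membrane anchor, was at 1.90 and 1.99 in control, 1.53 and 1.25 in KO1 and 1.26 and 1.23 in KO2. It fell in KO2 (-0.70 ± 0.19, limma adjusted p = 0.0417) and in the average (-0.63 ± 0.16, adjusted p = 0.0413), and was at -0.55 ± 0.19 in KO1. Sdhc, the other anchor, had the largest change of the complex and did not pass (-0.93 ± 0.30, adjusted p = 0.0688): its controls were at 7.46 and 6.65, KO1 at 5.75 and 6.40, and KO2 at 6.20 and 6.14. Sdha, the flavoprotein, was at 6.10 and 6.01 in control, 5.85 and 6.05 in KO1 and 5.46 and 5.55 in KO2 (-0.33 ± 0.15), so only KO2 lay apart from the controls. Sdhb, the iron-sulphur subunit, was at 6.80 and 6.91 in control, 6.19 and 6.80 in KO1 and 6.74 and 6.05 in KO2 (-0.41 ± 0.28).

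Complex III had a median of -0.38 in the average, -0.02 in KO1 and -0.71 in KO2 over 9 genes. Of these 1 fell in the average and 2 in KO2, against 26.0% and 29.0% of all genes. Uqcrq, a small subunit, was at 2.17 and 1.92 in control, 1.10 and 1.35 in KO1 and 1.13 and 1.32 in KO2. Both lines stood at the same level, below the controls, and the gene fell in KO2 (-0.82 ± 0.20, limma adjusted p = 0.0348) and in the average (-0.82 ± 0.18, adjusted p = 0.0276) but missed the threshold in KO1 (adjusted p = 0.0655). Uqcr10 (-0.63 ± 0.19), with the lowest control index of the complex, and the core protein Uqcrc1 (-0.63 ± 0.21), with the highest, did not pass, though their groups did not overlap. The electron carriers Cyc1 (-0.44 ± 0.21) and Uqcrfs1, the Rieske protein (-0.38 ± 0.33), did not pass either. Uqcrc2 (0.09 ± 0.20), Uqcrh (0.04 ± 0.16) and Uqcr11 (0.41 ± 0.22) were above control in the average, and none of them passed.

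Complex IV held the largest falls among the structural subunits, in 2 of its 15 genes. Cox5b (chromosome 1, 36691484 to 36693681), a zinc-binding subunit, was at 5.63 and 4.95 in control, 4.46 and 4.09 in KO1 and 3.28 and 3.85 in KO2. Each group lay below the one before, and the change was -1.38 ± 0.28 in the average (limma adjusted p = 0.0251) and -1.73 ± 0.33 in KO2 (adjusted p = 0.0212). In KO1 it was at -1.02 ± 0.33 and did not pass. The other was Cox4i2, which stands beside Cox4i1 as a pair of alternative forms of subunit 4, Cox4i1 being the usual form and Cox4i2 the one known from lung and low oxygen.

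The 2 forms of subunit 4 had like control levels, and 1 of them fell. Cox4i2 (chromosome 2, 152754173 to 152765037) was at 4.43 and 4.38 in control, 3.59 and 3.38 in KO1 and 2.94 and 2.70 in KO2. It fell in KO1 (-0.92 ± 0.18, limma adjusted p = 0.0478) and KO2 (-1.58 ± 0.18, adjusted p = 0.0170), and so did the average (-1.25 ± 0.16, adjusted p = 0.0179). Cox4i1 (chromosome 8, 120668222 to 120674207) was at 4.45 and 4.55 in control, 4.48 and 4.58 in KO1 and 4.33 and 4.63 in KO2. Its groups overlapped fully (0.00 ± 0.16 in the average), against a median of -0.47 over all genes. Cox4i1 overlaps Emc8 and Gm20388, so reads of those genes may be counted in its value. The difference between Cox4i1 and Cox4i2 was not tested.

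Of the other subunits of complex IV, Cox5a, Cox7a1 and Cox7a2l fell in KO2 (-0.65 ± 0.18, -0.96 ± 0.25 and -0.81 ± 0.22, with limma adjusted p from 0.0406 to 0.0440) and did not pass in the average. Within the subunit 7a family the ubiquitous Cox7a2 was at -0.09 ± 0.21 in the average, the muscle form Cox7a1 at -0.56 ± 0.22 and the related supercomplex factor Cox7a2l at -0.47 ± 0.19. The control index of these 3 was 2.17 ± 0.40, -0.76 ± 0.30 and 5.23 ± 0.26 (SD, n = 2). The subunit 6b forms were at 0.28 ± 0.17 for Cox6b1 and -0.31 ± 0.22 for the testis form Cox6b2. Cox6a1 (-0.51 ± 0.15), Cox7b (-0.42 ± 0.16), Cox7c (-0.52 ± 0.16), Cox8a (-0.36 ± 0.16), Cox6c (-0.27 ± 0.18) and Ndufa4 (-0.51 ± 0.18) did not pass.

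Complex V had the median closest to no change, at -0.12 in the average, -0.02 in KO1 and -0.28 in KO2 over 17 genes. Of these 1 fell in the average, 4 in KO2 and none in KO1, against 26.0%, 29.0% and 6.00% of all genes. All 4 knockout libraries lay below both controls in 2, against 45.3% of all genes. Relative to the median of all genes the complex was at 0.34 in the average. The F1 head, which makes ATP, had a median of -0.12 over 5 genes. Its catalytic and structural chains Atp5a1 (0.11 ± 0.29), Atp5b (-0.12 ± 0.18) and Atp5c1 (-0.01 ± 0.14) did not pass. Atp5d was at -0.73 ± 0.62, with controls at 6.43 and 4.16. Atp5e, the small epsilon chain with the lowest control index of the complex, was at 0.51 and 0.44 in control, 0.04 and 0.31 in KO1 and -0.55 and -0.39 in KO2. It fell in KO2 (-0.95 ± 0.20, limma adjusted p = 0.0257) and in the average (-0.63 ± 0.18, adjusted p = 0.0492). With the transcript of the longest exonic length Atp5a1 was at -0.84 in KO2 and passed.

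The c ring, which turns as protons pass, is encoded by 3 genes whose mature proteins are the same. None of them passed in any contrast. Atp5g1 was at 2.41 and 2.23 in control, 2.16 and 2.45 in KO1 and 2.17 and 2.18 in KO2. Atp5g2 was at 3.76 and 3.73, 3.30 and 3.44, and 3.32 and 3.89 in the same order, and Atp5g3 at 5.34 and 4.72, 5.64 and 6.07, and 5.01 and 4.92. Their control levels were well apart. The KO1 libraries of Atp5g3 were above both controls (0.82 ± 0.27) and those of Atp5g2 below (-0.37 ± 0.23), and the KO2 libraries of Atp5g1 were below both controls (-0.15 ± 0.19). The other knockout groups of these 3 genes overlapped the controls. Their spans were 6819, 8264 and 2880 bases, so the shortest had the highest index.

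The peripheral stalk, which holds the head still, had a median of -0.07 over 5 gene models. Atp5f1, its b chain, had the highest control index of complex V and replicates at 8.36 and 6.89 in KO1 (0.24 ± 0.47 in the average). Atp5j was at 5.60 and 6.21 in control, 5.00 and 5.09 in KO1 and 5.39 and 5.06 in KO2, without overlap, and missed the threshold (-0.76 ± 0.22, limma adjusted p = 0.0552). Atp5o has 2 gene models in the annotation, which overlap. The usual one (ENSMUSG00000022956, 6474 bases) was at 2.36 and 2.44 in control, 2.34 and 2.37 in KO1 and 1.52 and 1.46 in KO2, and fell in KO2 (-0.91 ± 0.17, adjusted p = 0.0199). The other (ENSMUSG00000116933) spans 242585 bases and several other genes, among them Itsn1 and Donson, and its change of 0.33 ± 0.21 may be theirs. Among the small membrane subunits, Atp5l (-1.04 ± 0.26) and Atp5k (-0.76 ± 0.18) fell in KO2, and Atp5j2 and Atp5mpl did not pass.

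Neither gene kept apart from the subunits and assembly factors is a part of the enzyme it is named for. Atp5s, coupling factor B, was at 5.24 and 5.05 in control, 4.12 and 4.02 in KO1 and 3.95 and 3.85 in KO2. It fell in both lines (-1.08 ± 0.17 and -1.25 ± 0.17, limma adjusted p = 0.0404 and 0.0170) and in the average (-1.16 ± 0.15). Ndufa4l2, a hypoxia-induced paralogue of Ndufa4, was at 2.19 and 1.93 in control, 1.30 and 0.64 in KO1 and 2.02 and 3.04 in KO2, and did not pass (-1.09 ± 0.40 in KO1 and 0.47 ± 0.40 in KO2).

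**Figure D3:**
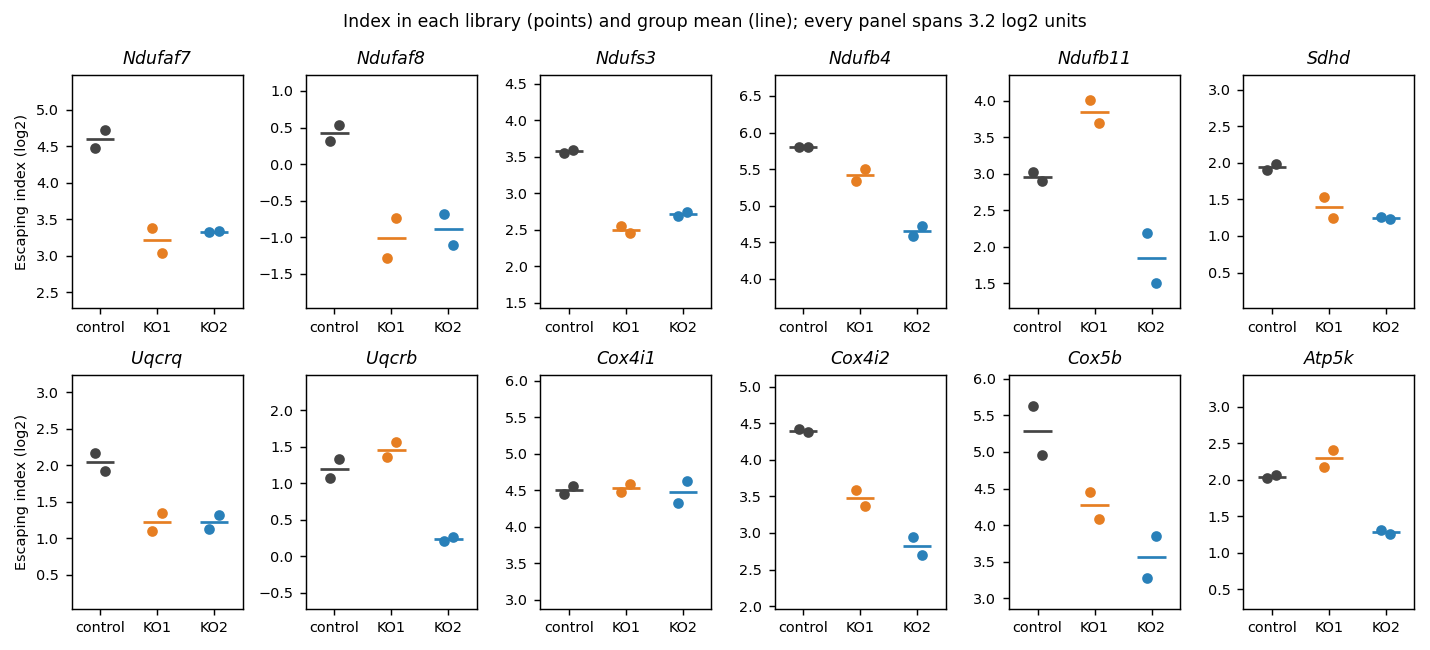
Escaping index (log2, vertical axis) in each library of 12 genes, with the group mean as a line. The controls of Ndufaf7, Ndufaf8, Ndufs3, Cox4i2 and Uqcrq stand above all 4 knockout libraries, Cox4i1 overlaps in all groups, and Ndufb11, Uqcrb and Atp5k lie above the controls in KO1 and below them in KO2.

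KO1 and KO2 were compared with each other directly, with 0 genes of 12974 called in either direction (0.00%). By any amount KO1 was lower than KO2 in 37 of the 91 genes (40.7%, against 32.4% of all genes) and higher in 54 (67.6% of all). Of the 91 genes, 19 were higher in KO1 and 4 higher in KO2 at an unadjusted p under 0.05, against 2205 and 459 of all genes. Ndufb11, an accessory subunit of complex I on the X chromosome, differed most. It was at 3.02 and 2.90 in control, 4.01 and 3.69 in KO1 and 2.19 and 1.50 in KO2. It stood above both controls in KO1 and below them in KO2, a difference of 2.01 ± 0.28 (unadjusted p = 0.000458, limma adjusted p = 0.125). Only the fall in KO2 passed (-1.12 ± 0.28, adjusted p = 0.0351). Rbm10 overlaps it, so reads of that gene may enter the value.

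Of complex V, 7 of 17 genes were higher in KO1 than in KO2 at an unadjusted p under 0.05 and none were lower. Of complex I, 7 of 36 were higher and 1 was lower, and of the assembly factors none differed at that level. Over all protein-coding genes, 2205 of 12974 were higher and 459 lower at that level. Uqcrb, a small subunit of complex III, was at 1.07 and 1.33 in control, 1.36 and 1.56 in KO1 and 0.21 and 0.26 in KO2. It fell in KO2 (-0.96 ± 0.20, limma adjusted p = 0.0240) and was at 0.26 ± 0.20 in KO1. The contrasts of KO1 and of KO2 share the control libraries, and their values for each gene are shown side by side in the plot of changes by line.

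**Figure D4:**
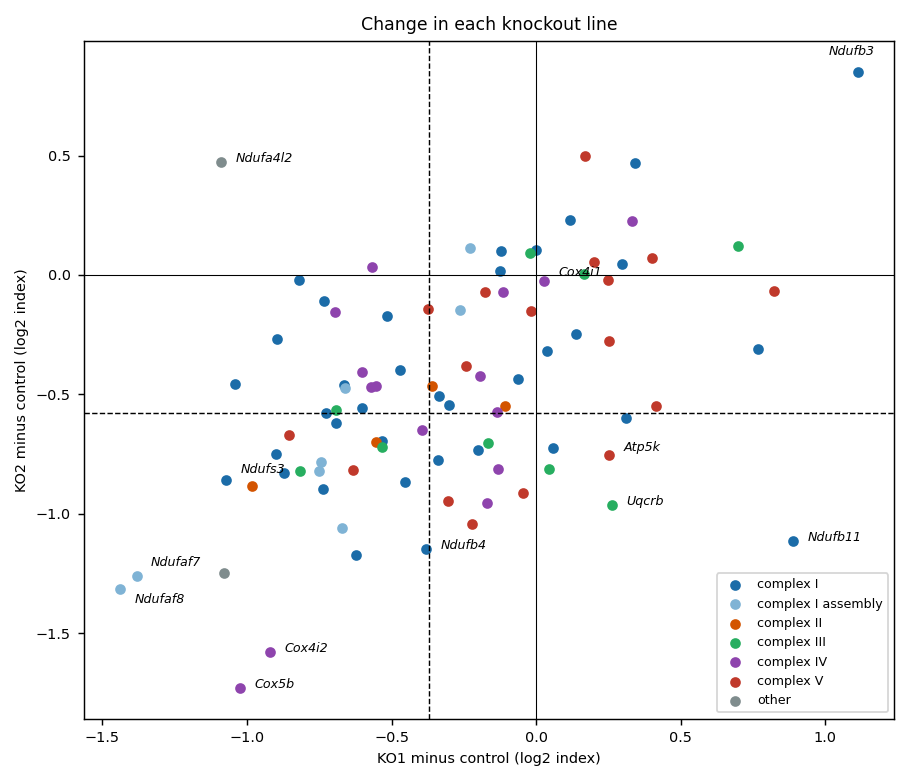
Change of the index in KO2 (vertical axis, log2) against KO1 (horizontal axis, log2) for the 91 genes, coloured by complex, with dashed lines at the medians of all protein-coding genes (-0.37 and -0.58). Both changes use the same 2 control libraries. Ndufaf7, Ndufaf8, Cox4i2 and Cox5b lie at the lower left, and Ndufb11, above control in KO1 and below it in KO2, at the lower right.

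Many of these genes share a promoter region with a neighbour. A protein-coding gene on the opposite strand started within 1000 bases upstream in 25 of the 91 genes (27.5%), against 11.1% of all protein-coding genes. The 25 genes had a median change of -0.63 in the average and 9 of them fell (36.0%), and the other 66 had -0.37 and 8 fell (12.1%). Over all protein-coding genes these values were -0.40 with a divergent neighbour (22.1% fell) and -0.48 without (26.4% fell). Among those 9 genes were Ndufaf7, 71 bases from Cebpz, Ndufaf5, 85 bases from Esf1, and Ndufaf8, 197 bases from Tepsin, whose promoter stretches are printed above. These assembly factors, and Atp5s, also among the 9, are no subunits, so the split overlaps with their falls described above. It was not among the planned comparisons. The neighbours Cebpz (0.15 ± 0.16), Esf1 (-0.09 ± 0.17) and Tepsin (-0.24 ± 0.20) did not pass in the average. The measured neighbours numbered 23, of which 18 were below control and 3 fell (median -0.36). Over all protein-coding genes 1330 neighbours were measured, of which 1127 were below control and 285 fell (median -0.39).

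A gene may also have several protein-coding transcripts in the table, and these do not always change alike. The 91 genes had 213 of them, and 57 genes had 2 or more with different values. In 60 genes every coding transcript was lower in the mean of the knockout libraries, in 11 every one was higher and in 20 some were higher and some lower. Another annotated gene overlapped the transcript used in 36 of the 91. Among them are genes described above without that remark, such as Ndufv2, Ndufs6, Ndufb9 and Uqcrb. The 55 genes without such an overlap had a median of -0.47 in the average, equal to that of all protein-coding genes, and the 36 with one had -0.32. The same split was not made over all genes.

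Other genes of the pathway were taken from 5 lists. Of 38 further assembly factors listed, 36 were measured, with a median of -0.48 in the average. In the average 9 fell and none rose, led by Coa5, a factor of complex IV (-0.90 ± 0.18), and Tmem126b, which helps to build the membrane arm of complex I (-0.86 ± 0.17), with limma adjusted p of 0.0239 and 0.0244. In KO1 1 of the 36 fell and in KO2 8, against 6.00% and 29.0% of all genes. Of 14 genes of coenzyme Q synthesis with cytochrome c, 4 fell in the average and none rose, led by Coq10a (-1.23 ± 0.20) and Coq4 (-1.05 ± 0.17), with a median of -0.47. Of 18 measured genes of the citric acid cycle and pyruvate dehydrogenase, 4 fell and none rose, with a median of -0.37. Suclg2 (-0.85 ± 0.15) and Sucla2 (-0.84 ± 0.19), which both encode succinyl-CoA synthetase subunits, led that list.

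Of 17 measured genes for the transcription and upkeep of mitochondrial genes, 3 fell and none rose, with a median of -0.51. Gabpa, the ETS factor that binds many promoters of oxidative phosphorylation genes, fell by 1.08 ± 0.16 in the average (limma adjusted p = 0.0182) and in each line. It overlaps Atp5j, one of the genes above, so the values of both may share reads. Ssbp1, which binds mitochondrial DNA, fell by 0.82 ± 0.15 (adjusted p = 0.0210). Of 5 measured carriers and pores, Vdac3 (-1.17 ± 0.19) and Vdac2 (-0.91 ± 0.24), channels of the outer membrane, fell. In all 5 lists the share called lower in the average can be read against 26.0% of all genes.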

How the data were processed

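Per the submitters' processing notes, the authors used CASAVA, Trimmomatic 0.38, HISAT2 2.1.0 and featureCounts with mm10. What each tool was set to do, whether strand was used and over which windows the index was taken are not stated there. The authors' file holds log2 ratios for 68473 Ensembl transcripts in 6 libraries, as deposited, with none missing. Depth is unknown, so no counting interval is given.

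Identifiers were matched without version to GENCODE M21 (68397 matched, 76 did not). For each protein-coding gene the protein-coding transcript with the longest genomic span was used. The deposited log2 values were fitted without rescaling in limma 3.58.1 (R 4.3.3), with all 3 groups, trended moderated variances, 3 residual degrees of freedom and 2.68 prior ones. Tests are two-sided with Benjamini-Hochberg adjustment over 12974 genes. SEs are limma's. On simulated data with 200 changed genes over 5 runs, changes of 2 were recovered in 57.3% (KO1), 57.4% (KO2) and 67.0% (average) of cases, and changes of 1 in none. In the deposited values 813 (KO1), 3839 (KO2) and 3444 (average) genes were called, and recovery with that many changed genes was not tested. Changes smaller than 1 did pass there, such as Ndufs6 in the average (-0.56 ± 0.15, limma adjusted p = 0.0450).

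The members and lists were chosen with earlier results of these data known. Named in full were the called genes with the smallest p (up to 8 per contrast), 3 per complex with the smallest p, those with the highest and lowest control index, complex II, paralogue families and 2 per pathway list. Others, such as Ndufb3, Ndufb11 and Uqcrb, were named after their values were seen. Alternatives were other transcripts, gene sets, scalings, a pseudocount, a filter on the mean index, other fits and leaving out libraries. Python 3.11.15 was used for summaries. The values of 1 gene that is counted among the 91 are not reported here.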

Additional observations from a re-analysis of the deposited data

Results flagged for a closer look

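In 6 of the 91 genes both KO1 libraries lay above both controls and both KO2 libraries below them, so the lines lay on opposite sides of control. The share of all genes with this pattern was not computed, so the count cannot be called unusual. Taken singly, 8.56% of all genes lay above both controls in KO1 and 67.0% below them in KO2. The difference KO1 minus KO2 was 2.01 ± 0.28 in Ndufb11, 1.23 ± 0.20 in Uqcrb, 1.01 ± 0.18 in Atp5k and 0.91 ± 0.17 in Ndufa9 (SE, log2). These 4 had unadjusted p from 0.000458 to 0.0022 and a limma adjusted p of 0.125 each. It was 0.53 ± 0.16 in Atp5c1 (limma adjusted p = 0.168) and 0.39 ± 0.18 in Ndufb5 (limma adjusted p = 0.291). None of the 6 differences passed the test over all genes. Of the 6, only Atp5k overlaps no other annotated gene. In the others, reads of the overlapping gene may enter the value. With 2 libraries in each group, the test for a library far from the others of its group could not be made.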

How the results depend on the processing

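The median change of the 91 genes was negative in KO1, KO2 and the average under every alternative but rescaling. It became 0.073, 0.048 and 0.044 with library medians set equal, and 0.073, 0.087 and 0.046 after quantile normalization. Both rescalings left 0 calls in any contrast over all genes (813, 3839 and 3444 as reported, both directions) and 0 among the 91 (5, 27 and 17). With genes and transcripts of all biotypes the calls in KO1 went to 0, and the 91 genes kept 0, 14 and 11. With only the groups compared they had 0 in KO1 (0 over all genes) and 17 in KO2. The knockouts taken as 1 group gave 1888 calls in the average, 9 of them among the 91. With the longest exonic length 3 were called in KO1. Leaving out 1 library gave 0 to 0 calls in KO1, 0 to 2755 in KO2 and 0 to 1138 in the average, and 0 to 0, 0 to 17 and 0 to 5 among the 91. The causes were not tested. Of the 49 single calls reported, 43 were kept with the longest exonic length, 43 with the mean of coding transcripts and 47 with a pseudocount of 1. With all biotypes 25 were kept, a setting that also changes the transcript used for some of the 91. The filter on the mean index left 83 of the 91 genes. All 42 of the single calls in those genes were kept, and the others were in genes it removed.

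Replicate numbers did not pair the samples (correlations of deviations 0.00165, -0.00897 and 0.00774). With the replicate block, KO1 had 0 calls (0 among the 91), KO2 2921 (18 among the 91) and the average 2494 (10 among the 91).

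The unknown depth and 2 libraries per group limit what a missed threshold shows. The count of the 91 genes called under each alternative, and the medians without assembly factors, Ndufa4l2 and Atp5s (-0.22, -0.47 and -0.42), were added after seeing the data.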
